A study of Mus musculus with 9 samples.

Results

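Transcripts that mark the commitment of neural progenitors to the neuronal lineage and the first steps of neuronal life were followed across mouse glioma tissue, glioma cells, neural stem cells and astrocytes. The members are the proneural basic helix-loop-helix factors Neurog1, Neurog2, Neurod1 and Neurod4, the zinc-finger factor Insm1, the microtubule-binding protein Dcx, and the SoxC factors Sox4 and Sox11. They were taken by name from the array's annotation, giving 8 genes of 34733 named on the array and 14 probes of 55666. Expression was measured on 9 single-colour arrays in 4 groups. There were 3 arrays of brain tumour tissue from mice of the MADM background labelled EZH2 knocked-out, called EZH2-KO tissue here, and 2 arrays of glioma cells of the MADM background, for which the labels list no allele. The other arrays came from wild-type C57BL/6J brain, 2 from neural stem cells and 2 from astrocytes. MADM, Mosaic Analysis with Double Markers, is a mouse system in which recombination between chromosomes can make single cells lose a gene while fluorescent markers record which cells did. The labels give no age, no driver for the recombination, and no word on whether the samples of a group came from separate animals or cultures. The p-values therefore rest on a spread between arrays that may be purely technical.

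In the developing brain, Neurog1 and Neurog2 are switched on in progenitors that are about to become neurons. They bind E-box sequences together with E proteins, raise Notch ligands such as Dll1 on the cell that expresses them, and start a cascade that includes Neurod1 and Neurod4, while the Hes, Hey and Id proteins hold the same cascade back. Insm1 acts downstream in intermediate progenitors, Sox4 and Sox11 turn on genes of the young neuron such as Tubb3, and Dcx stabilises the microtubules of migrating young neurons. In bulk RNA of this kind, fewer cells of a type and less RNA per cell cannot be told apart.

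The sequence just before the start of a member shows what a proneural factor could meet there. The RefSeq promoter table (GRCm38.p6) matched 7 of the 8 members, and Insm1 is named here without a sequence. The windows below hold the 250 bases before the annotated start, 5′ to 3′ on the gene's strand, with every match to the E-box letters CANNTG in capitals. Dcx, Sox4 and Sox11 are shown as the members with an entry that were called higher in neural stem cells than in astrocytes, and Neurog2 because its level differed most between arrays of 1 group. The Neurog2 window is chr3:127632886-127633135 on the plus strand, that of Dcx, from the more upstream of its 2 annotated starts, is chrX:143933220-143933469 on the minus strand, that of Sox4 is chr13:28953700-28953949 on the minus strand and that of Sox11 is chr12:27342719-27342968 on the minus strand.
Neurog2: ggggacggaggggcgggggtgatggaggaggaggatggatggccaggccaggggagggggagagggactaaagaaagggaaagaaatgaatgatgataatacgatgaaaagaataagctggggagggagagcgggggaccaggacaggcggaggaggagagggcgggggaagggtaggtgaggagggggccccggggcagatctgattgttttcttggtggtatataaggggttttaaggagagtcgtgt
Dcx: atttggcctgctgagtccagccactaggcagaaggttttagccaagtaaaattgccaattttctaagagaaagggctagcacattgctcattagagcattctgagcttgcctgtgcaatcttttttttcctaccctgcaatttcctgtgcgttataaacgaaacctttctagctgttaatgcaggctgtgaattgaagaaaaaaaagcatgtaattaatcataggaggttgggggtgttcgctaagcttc
Sox4: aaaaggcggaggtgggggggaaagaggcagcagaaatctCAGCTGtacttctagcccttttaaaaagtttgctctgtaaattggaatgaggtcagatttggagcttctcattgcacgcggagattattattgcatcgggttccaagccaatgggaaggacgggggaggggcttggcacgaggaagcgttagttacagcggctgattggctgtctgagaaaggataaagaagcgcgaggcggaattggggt
Sox11: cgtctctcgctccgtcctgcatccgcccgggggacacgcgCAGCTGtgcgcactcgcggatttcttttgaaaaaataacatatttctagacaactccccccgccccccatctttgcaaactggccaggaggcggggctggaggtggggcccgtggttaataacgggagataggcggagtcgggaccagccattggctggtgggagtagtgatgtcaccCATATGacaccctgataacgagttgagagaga
The windows of Sox4 and Sox11 each held 1 CAGCTG, which began 211 bases before the start in Sox4 and 210 bases before it in Sox11. Sox11 held a second match, CATATG, 32 bases before its start. The windows of Neurog2 and Dcx held no match, and neither did those of Neurog1 and Neurod4, while Neurod1 held 1 CATATG 242 bases before its start. Matches were counted on both strands, on which these palindromic letters read the same. Of 32817 windows of the same length in the table, 66.2% held at least 1 CANNTG and 31.8% held at least 2, and the letters CAGCTG were in 13%. The other E-box searched was CAGATG on either strand, which none of the members' windows and 14.5% of all windows held. A match is a description of letters and not of binding.

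All levels below are log2 of an array's processed signal minus log2 of its own 75th percentile, so that 0 is a bright transcript and each unit is a 2-fold step. Levels of different genes come from different probes and are not compared. Between 60.1% and 65.7% of spots per array were well above background, and no spot was saturated. The tissue arrays were hybridised on 1 slide and scanned together, and the 6 cell arrays on another slide, so slide and scan cannot be told apart from the difference between tissue and cells. Ezh2, the targeted gene, was at 1.91, 1.62 and 1.48 in the EZH2-KO tissue, 3.03 and 3.24 in glioma cells, 2.14 and 3.38 in neural stem cells and 0.19 and -0.58 in astrocytes. The labels do not say which part of Ezh2 was deleted, so this probe does not check the genotype. Markers separated the labelled cell types in part. Gfap and Aqp4 were at 6.42 and 3.91 and at 6.37 and 4.59 in astrocytes, and the neural stem cell marker Sox2 was at 3.83 and 3.42 in neural stem cells and at 3.17 and 2.64 in astrocytes. The astrocyte marker Aldh1l1 was at 6.54 and 4.39 in neural stem cells and at 6.75 and 5.47 in astrocytes, and in limma's test 0 of 8 astrocyte markers were called between these groups. Sox2 was at -7.55 and not well above background on glioma array 1, against 2.28 on glioma array 2. The mean log2 level of 9 microglia and macrophage markers ran from 3.34 to 4.44 in the tissue, -3.85 to -3.68 in glioma cells, -1.98 to -0.11 in neural stem cells and 3.60 to 3.9 in astrocytes. On the glioma arrays Aif1, Cx3cr1, Ctss and C1qa were not well above background, and Tyrobp, Csf1r, C1qb, Itgam and Ptprc were. The list's summed signal, in units of the 75th percentile, ran from 149 to 323 in the tissue, 21.0 to 32.3 in glioma cells, 27.2 to 41.0 in neural stem cells and 178 to 205 in astrocytes. Itgam was bright on all 9 arrays, from 4.29 to 5.08, and makes up most of that sum in glioma cells and neural stem cells.

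Of the proneural factors themselves, none was high in a whole group. Neurog1 (probe at chr13:56352616-56352675 in mm9, minus strand), a proneural factor of sensory and cortical neurogenesis, was at -3.62, -3.76 and -4.21 in the EZH2-KO tissue, -4.84 and -6.19 in glioma cells, -6.22 and -5.10 in neural stem cells and -5.26 and -5.06 in astrocytes. It was well above background on all 3 tissue arrays and on astrocyte array 2, and on no glioma or stem cell array. All 3 tissue arrays lay above all 6 cell arrays, within a range of dim signal.

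Neurog2 (chr3:127337805-127337864 in mm9, plus strand), the main proneural factor of the dorsal telencephalon, was at 1.05 on neural stem cell array 1 and at -4.65 on neural stem cell array 2, a 51.8-fold difference between arrays of the same group. It was at -7.14, -3.90 and -7.06 in the EZH2-KO tissue, at -3.41 and -7.14 in glioma cells and at -4.58 and -6.74 in astrocytes. In each of these 3 groups 1 array alone, the brighter one, was well above background. The 2 stem cell arrays averaged -1.80 ± 4.03 (SD, n = 2), and 99.9% of 25397 tested genes had a smaller SD between these arrays.

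Neurod1, which drives differentiation downstream of the neurogenins, had 2 probes. The brighter (chr2:79294309-79294368 in mm9, minus strand) was at -4.78, -4.15 and -6.38 in the EZH2-KO tissue, -5.61 and -4.21 in glioma cells, -2.98 and -4.91 in neural stem cells and -7.51 and -7.59 in astrocytes. It was well above background on tissue arrays 1 and 2, glioma array 2 and stem cell array 1. The other probe (chr2:79293621-79293680) was well above background on tissue array 2, glioma array 2 and stem cell array 1. Stem cell array 1 was thus the highest array for both Neurod1 probes, as it was for Neurog2. Neurod4 (chr10:129706046-129706105 in mm9, minus strand), a factor of the same cascade, ran from -7.73 to -5.34 and was well above background on no array. Neurod1 and Neurod4 were well above background on every array of no group and were therefore not tested.

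Insm1 (chr2:146050603-146050662 in mm9, plus strand), which promotes the formation of intermediate progenitors, separated all 4 groups. It was at -0.39, 0.48 and -0.19 in the EZH2-KO tissue, 1.05 and 1.96 in glioma cells, 3.54 and 3.09 in neural stem cells and -1.91 and -4.05 in astrocytes. From high to low the order was neural stem cells, glioma cells, EZH2-KO tissue and astrocytes, and no neighbours in that order overlapped. Every array was well above background.

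Dcx had 3 probes. The brightest (chrX:140290854-140290913 in mm9, minus strand) was at 3.01, 1.71 and 2.69 in the EZH2-KO tissue, 1.43 and 2.88 in glioma cells, 2.64 and -0.69 in neural stem cells and -6.59 and -6.62 in astrocytes. The astrocyte arrays were not well above background for any Dcx probe and lay far below all 7 other arrays. The ranges of the other 3 groups overlapped. As with Neurog2 and Neurod1, neural stem cell array 1 stood above stem cell array 2, here by 3.33 on the log2 scale, and both dimmer probes showed the same order.

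The SoxC factors behaved differently from each other. Sox4 (brightest of 3 probes, chr13:29040826-29040885 in mm9, minus strand) was bright on every array, at 3.65, 4.45 and 4.2 in the EZH2-KO tissue, 5.46 and 5.81 in glioma cells, 6.54 and 5.45 in neural stem cells and 3.71 and 4.2 in astrocytes. Tissue overlapped astrocytes, glioma cells overlapped neural stem cells, and the first pair lay below the second. Sox11 (brighter of 2 probes, chr12:28020087-28020146 in mm9, minus strand) was at 4.92, 1.03 and 2.19 in the EZH2-KO tissue, 2.48 and 3.29 in glioma cells, 2.56 and 3.62 in neural stem cells and -2.31 and -2.26 in astrocytes. Astrocytes lay below all other arrays for Sox11, and tissue array 1 was 14.8-fold above tissue array 2. Its SD within the tissue, 2.00 (n = 3), was larger than that of 99.0% of the 25397 tested genes.

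**Figure D1:**
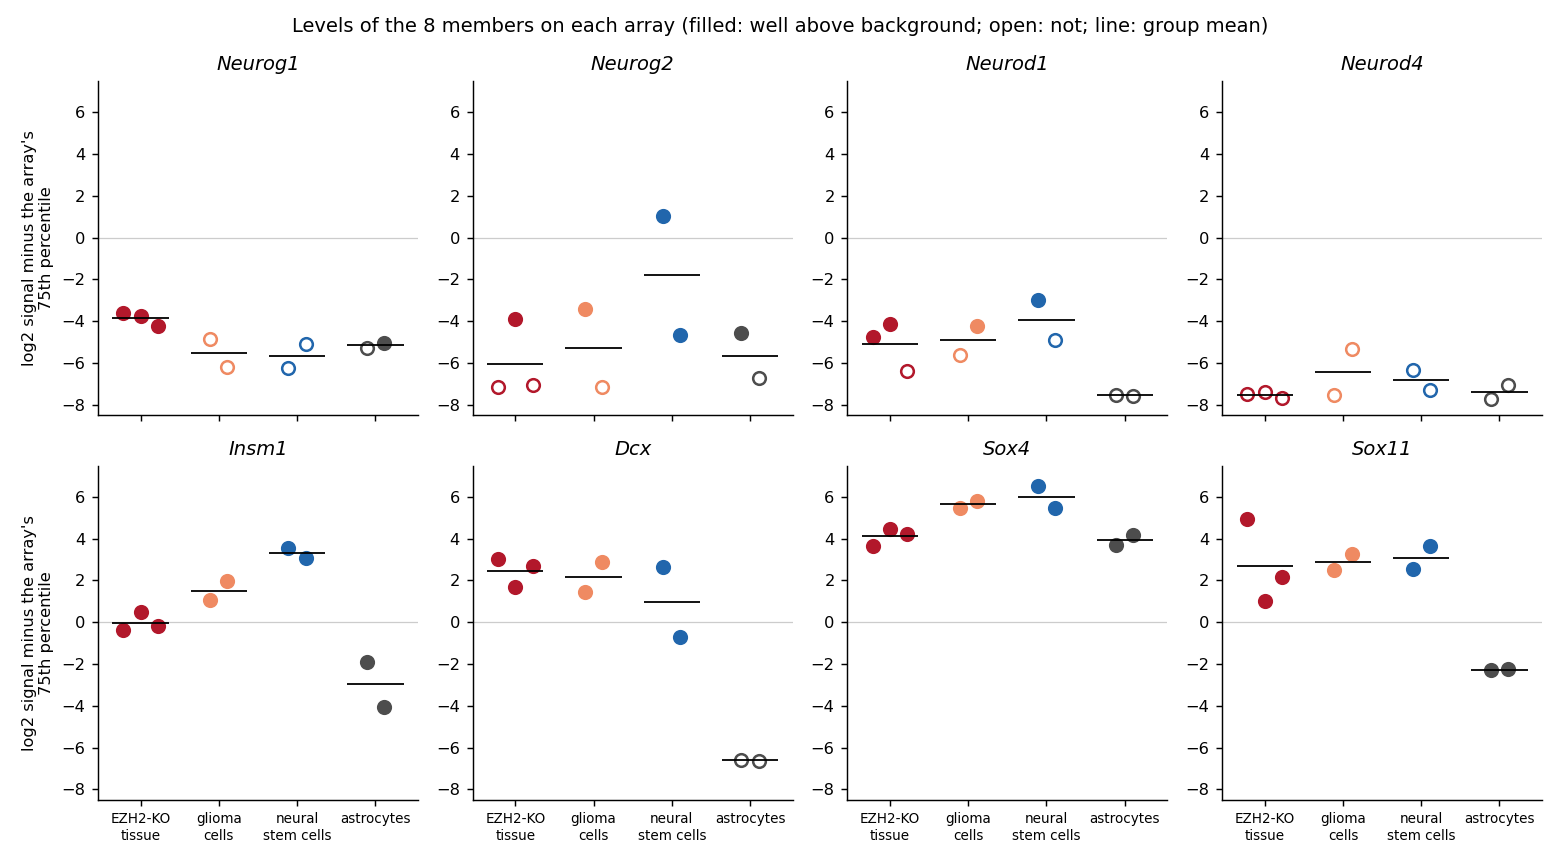
Levels of the 8 members on each of the 9 arrays, as log2 signal minus the array's 75th percentile. Each point is 1 array, filled where the probe was well above background, and the line is the group mean. Insm1, Dcx and Sox11 are lowest in astrocytes, where Dcx is not above background, and Neurog2 stands at 1.05 on 1 stem cell array.

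**Figure D2:**
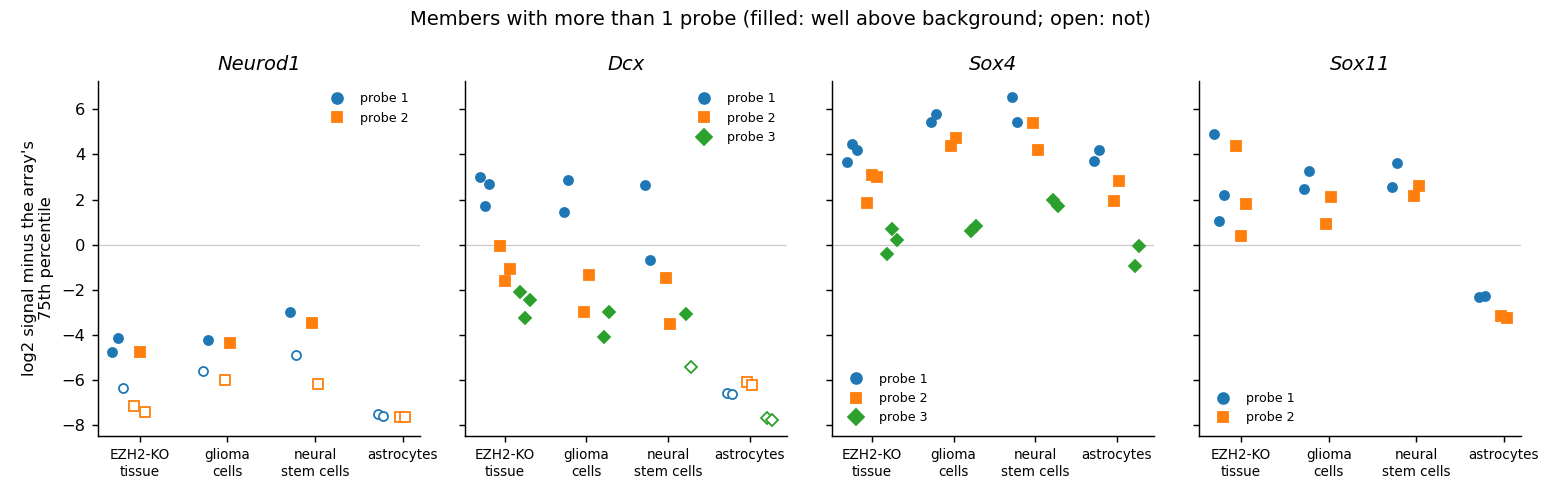
All probes of the 4 members that have more than 1 probe, as log2 signal minus the array's 75th percentile. Each point is 1 array, colours and shapes are probes ordered from bright to dim, and open points were not well above background. Both Sox11 probes and all 3 Dcx probes are lowest in astrocytes.

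The comparisons that follow give the first group minus the second on the log2 scale. Genes were tested with limma across all genes, and called means an adjusted p (Benjamini-Hochberg) under 0.05 together with a change of 2-fold or more. Where no array of the lower group measured a gene above background, the fold is a lower bound set against the dimmest measurable signal of those arrays. Where some of its arrays did, the value given includes a reading at background, and the number of arrays that measured the gene is stated. The 3 comparisons among cultured cells and normal cells share arrays, as do the 3 with the tissue, and they are not independent of one another.

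Glioma cells carried more Insm1, Dcx and Sox11 transcript than astrocytes. Of 5 tested members these 3 were called higher and none lower, where 18.8% of 24866 tested genes were called, 9.0% higher and 9.84% lower. Sox11 averaged 2.88 ± 0.57 in glioma cells and -2.29 ± 0.04 in astrocytes (SD, n = 2 each), a difference of 5.17 ± 0.48 (SE, adjusted p = 0.00428) or 36.0-fold. Dcx was at least 204-fold higher (adjusted p = 0.0096), a bound that ran from 123-fold to 338-fold as single arrays were left out, and with normexp background correction the difference was 5.47. Its dimmer probes differed by 4.18 and 4.0. Insm1 was 22.4-fold higher, by 4.49 ± 0.77 (SE, adjusted p = 0.0195). Sox4 was 3.21-fold higher without passing the test (adjusted p = 0.0594). Neurog2 differed by 0.39 ± 2.21 (SE, adjusted p = 0.917), with 1 of 2 arrays of each group measuring it. The Insm1 difference was 3.42 without astrocyte array 2 and 5.56 without astrocyte array 1, and without glioma array 2 it was 4.03 and lost its call (adjusted p = 0.0813, range over its alternatives 0.00466 to 0.0813). Sox4 passed when either stem cell array was left out of the shared fit (adjusted p = 0.0385, range over its alternatives 0.0319 to 0.226).

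Genes around the members moved in the same comparison. Of 24 tested proneural targets and intermediate progenitor genes, 8 rose and 3 fell, with a median difference of 0.91 against 0.15 over all genes. Myt1, a zinc-finger factor of neuronal differentiation, was at least 41.1-fold higher in glioma cells (adjusted p = 0.00275), and the Notch ligands Dll1 and Dll3 were among those that rose. Sstr2, a somatostatin receptor, was at least 4.16-fold lower (adjusted p = 0.0399). Of 22 young neuron cytoskeleton and RNA-binding genes 7 rose and 1 fell. Stmn4, a tubulin-binding stathmin, rose 36.7-fold (adjusted p = 0.0142), while Stmn2 from the same family was 580-fold lower, with 1 of 2 glioma arrays above background (adjusted p = 0.00944). Stmn2 was at 4.54 and 2.69 in astrocytes, which is a bright level for a neuronal gene in that group. Among 12 antagonists, Hes3 rose and Id1, Id3 and Id4 fell, Id4 134-fold (adjusted p = 0.0214). Hes3 was tested only through glioma cells and Sstr2 only through astrocytes, in each case the group where the gene is high. Their calls are not separate support for those differences. None of 8 tested relatives of the proneural factors passed in limma's test. Of 11 mature neuron genes Rbfox3 alone was called, at 22.7-fold with 1 of 2 astrocyte arrays measuring it (adjusted p = 0.0343). Over all genes 9.0% were called higher and 9.84% lower. The 1 of 12 antagonists and 1 of 11 mature neuron genes that rose, and the 3 of 24 targets that fell, are shares near these. In the same comparison 6 of 8 oligodendrocyte precursor markers rose and 8 of 9 microglia and macrophage markers fell. The part of these cell types in the members' differences was not tested.

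Between glioma cells and neural stem cells no tested member passed. In limma's test 0 of 5 members were called, and 0 of 5 had an unadjusted p under 0.05, where 0.977% of 24866 genes were called, 0.660% higher and 0.318% lower, and 3615 genes had an unadjusted p under 0.05. Insm1 was 3.51-fold lower in glioma cells, by -1.81 with a 95% interval of -3.76 to 0.13 (adjusted p = 0.378), and its arrays did not overlap. Neurog2 differed by -3.48 with an interval of -9.05 to 2.10, with 1 of 2 glioma arrays measuring it. Dcx differed by 1.18 with an interval of -1.70 to 4.07, and both genes have widely spread stem cell arrays. Sox4 differed by -0.36 (interval -1.51 to 0.80) and Sox11 by -0.21 (interval -1.43 to 1.00). Among the surrounding genes Hes3, a repressor of the Hes family, was called, at least 8.38-fold higher in glioma cells (adjusted p = 0.033), and no target, young neuron or mature neuron gene passed. Hes3 was tested only through the glioma cells, where it is high, so that call is not separate support. The targets' median was -0.73 against -0.05 over all genes.

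Neural stem cells carried more Insm1, Dcx, Sox4 and Sox11 transcript than the same 2 astrocyte arrays. Of 5 tested members 4 were called higher and none lower, where 14.6% of 24866 genes were called, 6.74% higher and 7.85% lower. Sox11 was higher by 5.38 ± 0.48 (SE, adjusted p = 0.00605), Insm1 by 6.30 ± 0.77 (SE, adjusted p = 0.0105) and Sox4 by 2.04 ± 0.46 (SE, adjusted p = 0.044), which are 41.6-fold, 78.7-fold and 4.11-fold. Dcx was at least 90.1-fold higher (adjusted p = 0.0171), a bound that ran from 28.4-fold to 285-fold as single arrays were left out. That bound, 6.49 on the log2 scale, is for the brightest probe with the main processing. The dimmer Dcx probes differed by 3.65 and by 3.46, the latter with 1 of 2 stem cell arrays above background. Under the other processing settings the Dcx difference was as low as 4.40. Neurog2, at 3.86 with 1 of 2 astrocyte arrays measuring it, did not pass (adjusted p = 0.268) and ran from 1.01 to 6.71 as single arrays were left out. The Sox4 call was lost whichever of the 6 arrays was left out, with adjusted p from 0.0512 to 0.16 and differences from 1.49 to 2.59. Insm1 was at 5.23 without astrocyte array 2 and 7.37 without astrocyte array 1, and lost its call without stem cell array 2 (6.52, adjusted p = 0.058), and Dcx at 7.60 without astrocyte array 1 (adjusted p = 0.0723) and at 7.57 without the other astrocyte array (adjusted p = 0.0768).

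Here 9 of 24 targets rose and 1 fell, with a median of 1.39 against 0.21 over all genes. Myt1 was at least 24.3-fold higher (adjusted p = 0.00511), and Cbfa2t3, a corepressor, was 14.9-fold lower (adjusted p = 0.0092). Of 22 young neuron genes 9 rose and 1 fell, led by the RNA-binding protein gene Elavl3 at 31.1-fold (adjusted p = 0.00572), with the microtubule-associated Map1b 11.8-fold lower (adjusted p = 0.0215). Hes5, a Notch target that represses proneural genes, was 191-fold higher in neural stem cells (adjusted p = 0.0287), and Id3 was 2.97-fold lower (adjusted p = 0.0471). Atoh7, a bHLH relative, was the single one of 8 called, at least 1.36-fold higher (adjusted p = 0.0394). It was tested only through the neural stem cells, where it is high, so its call is not separate support. Rbfox3 and Gad2 were called higher among 11 mature neuron genes, Rbfox3 by 89.5-fold with 1 of 2 astrocyte arrays measuring it (adjusted p = 0.0168). Over all genes 6.74% were called higher and 7.85% lower. The 1 of 12 antagonists called in each direction is a share near these. The 1 of 24 targets and 1 of 22 young neuron genes that fell are smaller shares. As in the comparison of glioma cells, 6 of 8 oligodendrocyte precursor markers rose and 8 of 9 microglia and macrophage markers fell against the astrocyte arrays. The summed signal of 6 fibroblast and meningeal markers ran from 1.82 to 5.40 in neural stem cells, against 34.2 to 362 in astrocytes. The part of these markers in the members' differences was not tested.

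**Figure D3:**
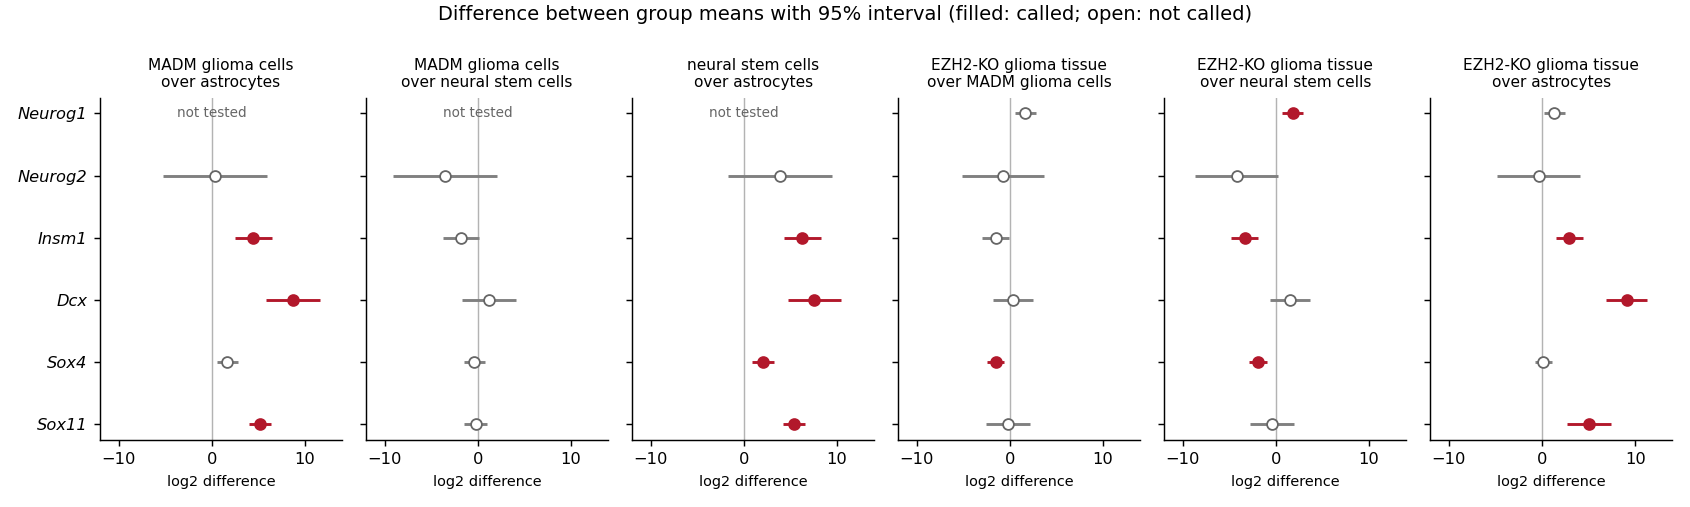
Difference between group means of the 6 tested members in the 6 comparisons, first group minus second, with 95% intervals from limma. Filled red points were called and open grey points were not. Dcx, Insm1 and Sox11 lie above 0 in each of the 3 panels against astrocytes, and no member is called between glioma cells and neural stem cells.

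Between EZH2-KO tissue and glioma cells 1 of 6 tested members, Sox4, was called. That share is near the 16.9% of 25397 genes called, 7.82% higher and 9.10% lower. Sox4 was lower in the tissue by 1.53 ± 0.41 (SE, adjusted p = 0.0406), a 2.90-fold difference. The dimmer Sox4 probes differed by -1.90 and -0.54. Neurog1 was at least 2.06-fold higher in the tissue without passing (adjusted p = 0.0543, range over its alternatives 0.0185 to 0.787), and Insm1 differed by -1.54 ± 0.63 (SE, adjusted p = 0.13). Dcx differed by 0.31 with an interval of -1.87 to 2.49 and Sox11 by -0.17 with an interval of -2.53 to 2.19, and the second Sox11 probe had the opposite sign at 0.65. Neurog1 passed without glioma array 1 (2.32, adjusted p = 0.0443) and without either stem cell array (adjusted p = 0.044), and with normexp it differed by 0.105. The Sox4 call was lost in 7 of 9 fits with 1 array left out, all but those without a stem cell array, with differences from -1.71 to -1.31 and adjusted p up to 0.175. It was also lost under quantile normalization, at -1.14 (adjusted p = 0.159, range over its alternatives 0.0251 to 0.273).

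Against neural stem cells, the tissue had less Insm1 and Sox4, and Neurog1, tested only through the tissue, was called higher. These 3 of 6 tested members were called, 1 higher and 2 lower, where 18.0% of 25397 genes were called, 8.08% higher and 9.89% lower. Insm1 was 10.2-fold lower, by -3.35 ± 0.63 (SE, adjusted p = 0.0122). Sox4 was 3.71-fold lower, by -1.89 ± 0.41 (SE, adjusted p = 0.0192). Neurog1 was at least 2.73-fold higher (adjusted p = 0.0407). Because the filter let it in through the group where it is high, its call is not separate support for that difference. Neurog2 differed by -4.23 with an interval of -8.67 to 0.20, with 1 of 3 tissue arrays measuring it, and Dcx by 1.49 with an interval of -0.68 to 3.67. Without stem cell array 1, the array high in Neurog2, the Dcx difference was 3.16 and passed (adjusted p = 0.0305), while Sox4 at -1.34 (adjusted p = 0.076) and Insm1 at -3.12 (adjusted p = 0.0532) did not. Insm1 also lost its call without stem cell array 2 (-3.58, adjusted p = 0.0611), and Sox4 without tissue array 1 (-1.67, adjusted p = 0.0519). The Neurog1 call held in 2 of 9 fits with 1 array left out, those without a glioma array, and with normexp background correction the difference was 0.10 (adjusted p = 0.801, range over its alternatives 0.0159 to 0.801).

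Against astrocytes, the tissue had more Insm1, Dcx and Sox11 transcript, and these 3 of 6 tested members were called higher and none lower, where 23.0% of 25397 genes were called, 10.6% higher and 12.4% lower. Dcx was at least 254-fold higher (adjusted p = 0.00132), Sox11 was higher by 5.0 ± 1.01 (SE, adjusted p = 0.0128) and Insm1 by 2.95 ± 0.63 (SE, adjusted p = 0.0158). The Dcx bound, 7.99 on the log2 scale, is for its brightest probe with the main processing. Its dimmer probes differed by 5.11 and 5.25, and with normexp the difference was 5.78. Sox4 differed by 0.15 with an interval of -0.81 to 1.1. Insm1 was at 4.02 without astrocyte array 1, and without astrocyte array 2 it was higher by 1.88 and lost its call (adjusted p = 0.0649, range over its alternatives 0.00822 to 0.0651). Sox11 lost its call at 4.97 without astrocyte array 1 (adjusted p = 0.0629) and at 5.02 without the other one (adjusted p = 0.0613), and without tissue array 1 it was at 3.89 (adjusted p = 0.00895).

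Of 12 mature neuron genes 6 rose in the tissue in each of its 3 comparisons and 6 did not pass, where 7.82%, 8.08% and 10.6% of all genes were called higher. Syp, Slc17a7, Gad2, Camk2a and Slc32a1 rose each time. The sixth was Gad1 against glioma cells and neural stem cells and Rbfox3 against astrocytes. Their medians were 3.50 against glioma cells, 2.76 against neural stem cells and 3.01 against astrocytes, and those of all genes -0.16, -0.22 and -0.06. Slc32a1, the vesicular GABA transporter gene, was higher than in glioma cells by 8.88 with 1 of 2 glioma arrays measuring it (adjusted p = 0.00514), and Slc17a7, a vesicular glutamate transporter gene, exceeded neural stem cells by 5.82 with 1 of 2 stem cell arrays measuring it (adjusted p = 0.00775). Slc32a1 was at least 723-fold higher than in astrocytes (adjusted p = 0.00199). Slc17a7 entered the test only through the tissue, the group where it is high, so its calls are not separate support. Of 24 targets 4 rose and 1 fell against glioma cells, 2 rose and 1 fell against neural stem cells, and 9 rose and 3 fell against astrocytes. The 2 of 24 that rose against neural stem cells and the 3 of 24 that fell against astrocytes are shares near those of all genes, 8.08% and 12.4%. Tbr1, a factor of deep-layer cortical neurons, exceeded glioma cells 58.3-fold with 1 of 2 glioma arrays measuring it (adjusted p = 0.00387), while Myt1 was 4.22-fold lower than in glioma cells (adjusted p = 0.0246). Myt1l, a paralogue of Myt1 in neurons, exceeded neural stem cells 18.1-fold (adjusted p = 0.0167) and astrocytes at least 259-fold (adjusted p = 0.00109). Btg2, an antiproliferative gene of neurogenic progenitors, was 11.8-fold lower than in neural stem cells (adjusted p = 0.00477), and Cbfa2t3 27.0-fold lower than in astrocytes (adjusted p = 0.000579).

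Of 22 young neuron genes 3 rose and 1 fell against glioma cells, none rose and 1 fell against neural stem cells, and 13 rose and 1 fell against astrocytes. In the same order 7.82%, 8.08% and 10.6% of all genes were called higher and 9.10%, 9.89% and 12.4% lower. The 1 of 22 that fell is a smaller share than that of all genes each time. Stmn2 exceeded glioma cells by 8.32 with 1 of 2 glioma arrays measuring it (adjusted p = 0.00372), and Stmn4 exceeded astrocytes 51.8-fold (adjusted p = 0.00291). Dpysl5, a collapsin response mediator, was the 1 that fell each time, by 1.44, 1.52 and 1.33. Neurod6, a bHLH factor of mature cortical neurons, was at least 21.2-fold higher than in glioma cells (adjusted p = 0.00432) and 9.84-fold higher than in neural stem cells, where 1 of 2 arrays measured it (adjusted p = 0.0485), and at least 27.9-fold higher than in astrocytes (adjusted p = 0.00291). Tcf12, an E protein, was 3.61-fold lower than in neural stem cells (adjusted p = 0.0167). Among the antagonists Heyl rose against glioma cells, at least 8.11-fold (adjusted p = 0.00284), and against neural stem cells, at 5.11-fold with 1 of 2 arrays measuring it (adjusted p = 0.0247), while Hes3, measured on 2 of 3 tissue arrays, was 4.34-fold lower than in glioma cells (adjusted p = 0.0493). Neurod6 and Heyl were tested only through the tissue and Hes3 only through glioma cells, in each case the group where the gene is high. Their calls are therefore not separate support for these differences. Hes5 rose 56.7-fold (adjusted p = 0.0113) and Id3 fell 4.53-fold (adjusted p = 0.0204) against astrocytes. All 12 mature neuron genes were well above background on all 3 tissue arrays, and their summed signal ran from 68.4 to 175 in the tissue, against 26.8 to 29.5 in glioma cells, 33.4 to 38.5 in neural stem cells and 21.6 to 25.6 in astrocytes. The tissue also had higher levels than glioma cells of 8 of 9 microglia and macrophage markers, 5 of 8 astrocyte markers, 3 of 6 endothelial and pericyte markers and both tested red blood cell markers. The 3 endothelial and pericyte markers, Cldn5, Tek and Rgs5, and the red blood cell marker Hbb-bt were tested only through the tissue. Their calls are not separate support. Against astrocytes 7 of 8 oligodendrocyte precursor markers rose, and no microglia and macrophage marker passed. The part of admixed cells in the tissue's values was not tested.

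**Figure D4:**
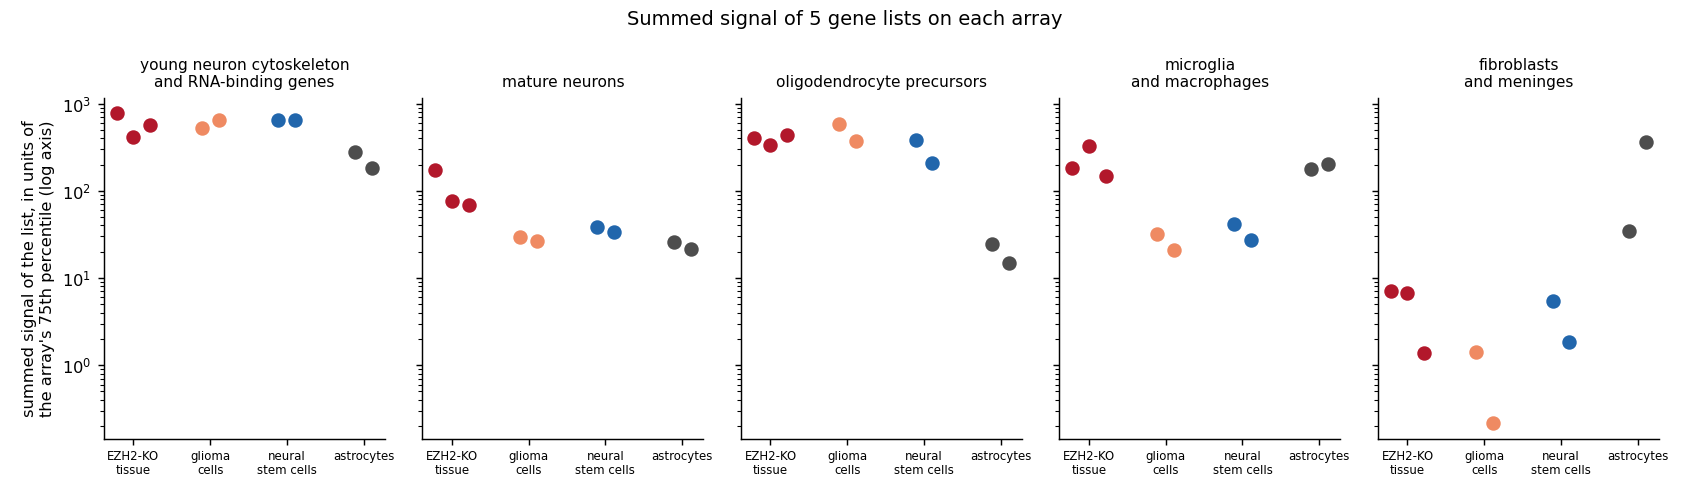
Summed signal of 5 gene lists on each array, in units of the array's 75th percentile, on a log axis. Each point is 1 array. The mature neuron list is highest on the 3 tissue arrays, and the oligodendrocyte precursor and young neuron lists are lowest on the 2 astrocyte arrays, where the fibroblast and meningeal list is highest.

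The 2 neural stem cell arrays differed from each other in many genes of the proneural cascade. Array 1 exceeded array 2 for Neurog2 by 51.8-fold, Sox4 by 2.14-fold and Dcx by 3.33 on the log2 scale, and for Neurod1, which was above background on array 1 and not on array 2, whereas Sox11 was 2.08-fold lower and Insm1 1.37-fold higher. Of 26 targets well above background on at least 1 of these arrays, 14 were at least 2-fold higher on array 1 and 2 at least 2-fold lower, where 2555 of 23924 genes were higher and 2457 lower by that much. The higher ones included Dll1 (2.21-fold), Dll3 (4.51-fold), Rnd2 (5.27-fold), which encodes a small GTPase that acts in neuronal migration, and Ebf2, a factor of early neurons that was at -1.30 on array 1 and not above background on array 2. These genes were named after their values were seen. Eomes, the marker factor of intermediate progenitors, and Ebf1 were lower on array 1, where Eomes was not above background. Of 11 bHLH relatives 5 were higher, among them Neurod2, Neurod6, Nhlh1 and Nhlh2. Of 22 young neuron genes 10 were higher and 2 lower. Of 12 antagonists 6 were higher on array 1, including Hes5 (5.32-fold), Id4 (15.4-fold) and Hey2, which was not above background on array 2, and 1 was lower, Hes1 by 6.11-fold. With 1 array on each side there is no test, and these counts describe 2 arrays. They include genes that 1 of the arrays did not measure above background.

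The glioma arrays also differed from each other, in part in the same genes. Neurog2 was above background on array 1 and not on array 2, and Neurod1 the other way round, while Dcx, Insm1 and Sox11 were higher on array 2, by 2.74-fold, 1.88-fold and 1.76-fold. Of 22 young neuron genes 1 was at least 2-fold higher on glioma array 1 and 9 were at least 2-fold lower, where 8.46% and 7.81% of 23391 genes were. Of 23 targets 2 were higher and 3 lower by that much, and of 12 antagonists 2 and 2. Of 12 mature neuron genes 3 were higher and 2 lower, and of 7 bHLH relatives 0 and 0. Between the astrocyte arrays more genes of these lists were higher on array 1 than lower. Of 22 targets 6 were at least 2-fold higher and 1 lower, of 22 young neuron genes 6 and 2, of 11 antagonists 2 and 0, and of 9 mature neuron genes 3 and 0, where 9.65% of 24245 genes were higher and 8.21% lower. Insm1 was 4.41-fold higher on astrocyte array 1, Neurog2 was above background there and not on array 2, and Sox11 differed by 1.04-fold.

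**Figure D5:**
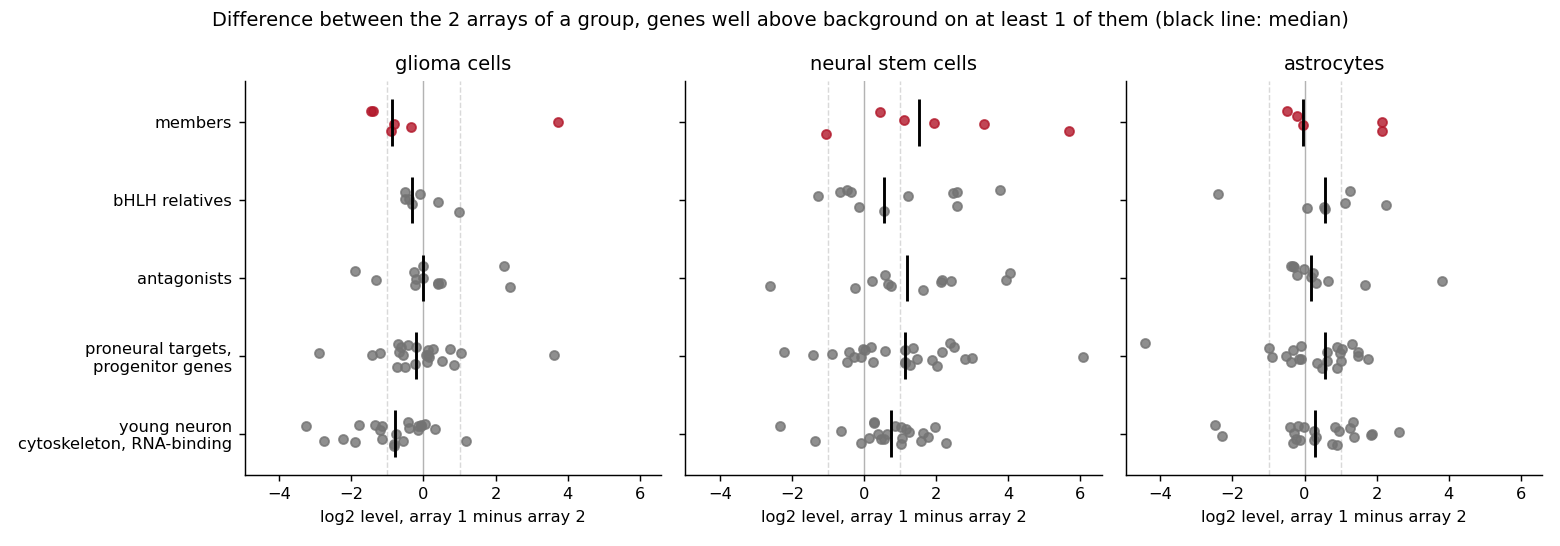
Difference in log2 level between array 1 and array 2 of each group that has 2 arrays, for the members and 4 gene lists. Each point is a gene well above background on at least 1 of the arrays, the black line is the list's median and the dashed lines mark a 2-fold difference. On the stem cell arrays the median of the targets is 1.14 and that of the members 1.52.

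The genes whose pattern over the 9 arrays lay nearest to each member were found by the root mean square difference of gene-centred log2 values among 15939 characterised genes. For Insm1 these were Rcor2 (0.55), Zfp157 (0.78) and Zfhx2os (0.81). For Dcx they were Syt16 (0.53), Brinp3 (0.65) and Phactr3 (0.73), and for Sox11 they were Lmo3 (0.66), Lmo1 (0.70) and Slc29a4 (0.74). Sox4 lay nearest to D11Ertd80e, Psapl1 and Zfp326 (0.35 to 0.36), and Neurog1 to Gnaz, Egfem1 and Tmem210 (0.29 to 0.35). The nearest genes to Neurog2, Myorg, Acss1 and Vegfa, were at 1.53 to 1.64, farther than the nearest genes of the other 5 members. The members were not each other's nearest neighbours. The nearest member to Dcx was Sox11, at 2.01 and rank 119, the nearest to Insm1 was Sox4, at 1.6 and rank 309, and the nearest to Sox11 was Insm1, at 1.73 and rank 735. Neurog2 had Sox4 as its nearest member, at 2.06 and rank 88. For Sox4 it was Insm1, at rank 11568, and for Neurog1 it was Sox4, at rank 13173. These are descriptions over 9 arrays, and arrays of a group may share their culture or animal.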

How the data were processed

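RNA from 9 samples was labelled with Cy3, per the labels, and hybridised to single-colour Agilent mouse arrays. The deposited scanner files give the processed signal as an intensity per spot, background-subtracted by Agilent Feature Extraction. The file headers name version 10.7.1.1 for the 6 cell arrays and 10.7.3.1 for the 3 tissue arrays, while the submitters' processing notes name 10.7.3.1. The authors also deposited a log2 table, which matched log2 of the processed signal within 0.01 for 99.2% to 100% of probes, with column medians of 5.08 to 6.28 and no scaling between arrays.

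Control and outlier spots were dropped before replicate spots of a probe were averaged. From each array's log2 signal its 75th percentile was subtracted. The array's gene names were updated through RefSeq accessions for 27232 probes. A probe was tested where all arrays of some group flagged it as well above background, and the brightest tested probe stood for its gene, so 25397 genes were tested over 9 arrays and 24866 over the 6 cell arrays. Comparisons with the tissue used the 9-array fit, the others the 6-array fit, both with limma 3.58.1 in R 4.3.3 (lmFit and eBayes) and Benjamini-Hochberg adjustment over all genes. Tables were handled in Python 3.11.15 with pandas 2.3.3, and the figures drawn with matplotlib 3.10.9. The number of arrays, 2 or 3 a group, limits the precision.

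The members, the gene lists and the marker lists were chosen with earlier results of these data known. Genes were named by rule: all members, from each list the called genes with the largest rise and fall in a comparison, or the largest difference where none was called, and the 3 genes nearest to each member. Genes given beyond that rule were chosen after their values were seen. A gene that the rule would name is not reported here. Alternatives were normexp background correction, quantile normalization, the deposited log2 table, other filters, the mean of a gene's probes, other sets of arrays in the fit, a replicate block, and leaving out each array. Normexp was run on the mean signal in the 6-array fit and on the median signal in the 9-array fit, a choice made after seeing the data because the tissue files hold no mean signal. The probe coordinates are those of the files (mm9), without an annotation of that build.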

Additional observations from a re-analysis of the deposited data

How the results depend on the processing

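The higher levels of Dcx in glioma cells and in the tissue than in astrocytes, and of Sox11 in glioma cells and in neural stem cells than in astrocytes, kept their direction and their call under every alternative run. The number of members called ran, with single arrays left out, from 2 to 4 for glioma cells against astrocytes, stayed at 0 for glioma cells against neural stem cells, and ran from 2 to 3 for neural stem cells against astrocytes, from 0 to 2 for tissue against glioma cells, from 1 to 3 for tissue against neural stem cells and from 1 to 3 for tissue against astrocytes. The number of all genes called ran in the same order from 1993 to 4890, 0 to 178, 1199 to 2656, 1717 to 4674, 1643 to 4279 and 3104 to 6073. Between glioma cells and neural stem cells 129 genes were called with no filter, 157 with the stricter filter and 492 with all 9 arrays in 1 fit, against 243. For tissue against glioma cells 0 members were called under quantile normalization, with no filter and with the mean of a gene's probes, and in the deposited table the 1 called was Neurog1, at 2.19 (adjusted p = 0.0185, range over its alternatives 0.0185 to 0.787).

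With normexp, the gap between the highest and lowest group mean was 0.33 for Neurog1, 1.16 for Neurod1 and 5.78 for Dcx, and Neurog2 in tissue minus astrocytes was 0.057. Sox4 in glioma cells minus astrocytes passed with normexp (adjusted p = 0.0486) and with all 9 arrays (adjusted p = 0.0319). In neural stem cells minus astrocytes it did not pass under quantile normalization (1.84), in the deposited table (1.63) or with no filter. For tissue minus glioma cells Sox4 was also lost in the deposited table (-0.99), with no filter and with the mean of probes (-1.33), and for tissue minus neural stem cells under quantile normalization (-1.52) and in the deposited table (-1.39). Neurog1 in tissue minus neural stem cells was lost with no filter (adjusted p = 0.055). Signs turned for differences that were not called. Neurog2 in glioma cells minus astrocytes was -0.055 in the deposited table. Sox11 in tissue minus glioma cells was 0.019 under quantile normalization, 0.37 in the deposited table and 0.24 with the mean of probes, and in tissue minus neural stem cells 0.13 in the deposited table. With single arrays left out, glioma cells minus astrocytes ran from -1.48 to 2.25 for Neurog2. Glioma cells minus neural stem cells ran from -0.48 to 2.84 for Dcx, -0.91 to 0.19 for Sox4 and -0.74 to 0.32 for Sox11. Tissue minus glioma cells ran from -2.62 to 1.11 for Neurog2, -0.41 to 1.04 for Dcx and -1.27 to 0.67 for Sox11, tissue minus neural stem cells from -0.17 to 3.16 for Dcx and -1.49 to 0.46 for Sox11, and tissue minus astrocytes from -1.45 to 0.71 for Neurog2 and -0.094 to 0.39 for Sox4. The cause was not tested.

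The unscaled deposited table split the calls into higher and lower differently: 1206 and 2807 for glioma cells against astrocytes (with scaling 2239 and 2447), 649 and 2040 for neural stem cells against astrocytes (1675 and 1952), 2979 and 762 for tissue against glioma cells (1985 and 2312), and 2618 and 753 for tissue against neural stem cells (2051 and 2513). The median of all genes was then -0.29, -0.19, 0.38 and 0.29, against 0.15, 0.21, -0.16 and -0.22.

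The samples share only replicate numbers. Deviations of same-numbered arrays correlated at -0.16 to 0.12. With the replicate block 49 genes were called between glioma cells and neural stem cells, 2601 for tissue against glioma cells, 2604 for tissue against neural stem cells and 3176 for tissue against astrocytes. With the block 0 members were called for tissue against glioma cells, where Sox11 was at 0.094, and 0 for tissue against neural stem cells, and Neurog2 in tissue minus astrocytes was 0.14. The block also ended the calls of Sox4 in neural stem cells minus astrocytes and of Insm1 in tissue minus astrocytes. A slide or scan block was not run, because all tissue arrays lay on 1 slide and all cell arrays on the other. Dim signal limits Neurog1, Neurod1 and Neurod4, which lie near background on most arrays.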
